A study of Mus musculus with 13 samples.

Results

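The transcripts of 10 genes named as markers of cartilage-like and bone-like change and as vascular proteoglycans were followed through 13 mouse aortas. The genes were taken by name from the deposited gene count table, which lists 54532 genes, and all 10 were found. They are the transcription factors Sox9 and Runx2, the cartilage matrix genes Acan and Comp, the large proteoglycan gene Vcan, the small leucine-rich proteoglycan genes Bgn, Dcn and Lum, and the mineral-binding genes Spp1 and Mgp. The aortas came from ApoE knockout mice, which lack apolipoprotein E and develop high plasma lipids. Both groups carried this deletion and both received angiotensin II (AngII), a pressor peptide, from a subcutaneous pump at 1000 ng/kg/min for up to 28 days, starting at 10 weeks of age. The 6 Ad-sham mice were injected through the tail vein with an empty adenovirus vector and the 7 Ad-FAM3A mice with the same vector carrying mouse Fam3a behind the EF1A promoter, each in 5 injections. This promoter is active in many cell types, and a virus given by vein is not directed to the aorta. Each aorta was 1 library of total RNA from whole vessel tissue.

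In a healthy artery, vascular smooth muscle cells hold a contractile program and secrete a matrix in which proteoglycans fill the space between elastic and collagen fibres. Under injury these cells can lose contractile proteins and take on genes of cartilage and bone, a process known from atherosclerosis, aneurysm and vascular calcification. Sox9 is the master regulator of chondrocytes and drives Acan, whereas Runx2 is the master regulator of osteoblasts and drives Spp1. Biglycan, decorin and lumican bind collagen and growth factors, and matrix Gla protein, encoded by Mgp, inhibits mineral deposition in the artery wall. The comparison asked whether these transcripts differed between aortas of mice given the Fam3a vector and of mice given the empty vector.

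Total counts ranged from 14481179 to 19797407 per aorta, and 3 counts, the most that a listed 0 could hide, stood for between 0.152 and 0.207 CPM, the count relative to the library's size, which covers counting error only. All 10 members passed the filter on low counts, which left 15811 genes for testing. The members together took 0.335 to 1.21% of all counts in an aorta. Fam3a itself averaged 24.4 ± 4.27 CPM over 6 Ad-sham aortas (± is the SD throughout) and 23.97 ± 4.64 CPM over 7 Ad-FAM3A aortas, and on the log2 scale this difference was -0.03, with a standard error (SE) of 0.16. The targeted transcript thus did not set the labels apart. The sources used here do not say whether RNA from the vector was counted on this gene, so the labels could not be checked by it and every comparison takes them as given. Of 7 smooth muscle markers all were detected, and their summed level ran from 2882 to 12645 CPM in Ad-sham and from 2186 to 17973 CPM in Ad-FAM3A aortas. The lowest 3 sums were those of Ad-FAM3A6 (2186 CPM), Ad-sham1 (2882 CPM) and Ad-sham3 (5123 CPM), which also had the highest 3 sums of 6 cardiac muscle markers, at 187, 283 and 76.1 CPM. Ad-FAM3A6 also held the highest sums of 4 B cell markers (536 CPM) and 6 T cell markers (375 CPM). These 3 libraries are called the 3 aortas that stand apart below. Ad-sham3 did so least, as the next sums were 5445 CPM (smooth muscle, Ad-FAM3A7) and 33.6 CPM (cardiac muscle, Ad-FAM3A1). The 3 were chosen after seeing the data. Ad-sham3 was also among the lowest 3 aortas for 9 of 10 members, Ad-FAM3A6 for 6 and Ad-sham1 for 5. The members' fold changes that move without them are given both ways.

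The members lie on 9 chromosomes of the GRCm38 assembly, as the table gives them, and their starts and ends matched those of GENCODE release M21 for 10 of 10. Sox9 is at chr11:112782224-112787760 on the plus strand and Runx2 at chr17:44495987-44814797 on the minus strand. Acan is at chr7:79053483-79115099 on the plus strand and Comp at chr8:70373558-70382066 on the plus strand. Vcan is at chr13:89655312-89742509 on the minus strand, and Bgn is at chrX:73483602-73495933 on the plus strand. Spp1 is at chr5:104435118-104441050 on the plus strand and Mgp at chr6:136872435-136875823 on the minus strand. Dcn, at chr10:97479609-97518143, and Lum, at chr10:97565128-97572703, are neighbours on the plus strand with 46984 bases between them. The next genes of that cluster are also small leucine-rich proteoglycans, and their levels differed widely from those of Dcn and Lum. Kera had 0 counts in every aorta and Epyc was at 0.537 ± 0.412 RPKM (CPM per kilobase of gene length; SD, n = 13), against 220 ± 69.3 RPKM for Dcn and 137 ± 78.2 RPKM for Lum.

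Promoter sequence from RefSeq (GRCm38.p6) was matched for 5 of the 10 members, Acan, Runx2, Spp1, Bgn and Vcan. The 200 bases before the RefSeq start are shown for 2 pairs of genes, Runx2 with Spp1 and Acan with Bgn. These pairs were chosen because their transcripts moved together in these same aortas, and 1 motif was marked for each pair. Whether a motif bears on the values below was not tested. Runx2 is at chr17:44814628-44814827 (minus strand) and Spp1 at chr5:104434911-104435110 (plus strand), and capitals mark the RUNX motif ACCACA, searched on both strands.
Runx2: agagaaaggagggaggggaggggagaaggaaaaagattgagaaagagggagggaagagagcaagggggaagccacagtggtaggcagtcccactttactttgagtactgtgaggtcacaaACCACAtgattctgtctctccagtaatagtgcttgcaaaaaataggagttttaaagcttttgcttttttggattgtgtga
Spp1: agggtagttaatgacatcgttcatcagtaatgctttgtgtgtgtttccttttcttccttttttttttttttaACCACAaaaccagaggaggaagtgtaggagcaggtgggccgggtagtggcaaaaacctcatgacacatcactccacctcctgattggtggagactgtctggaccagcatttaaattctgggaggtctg
Each window held 1 match, starting 80 bases before the Runx2 start and 128 bases before the Spp1 start. The motif was present in 11.2% of all 32851 promoter windows of this length. Acan is at chr7:79053026-79053225 and Bgn at chrX:73483401-73483600 (both plus strand), and capitals mark the GC box GGGCGG, here always read on the other strand as CCGCCC.
Acan: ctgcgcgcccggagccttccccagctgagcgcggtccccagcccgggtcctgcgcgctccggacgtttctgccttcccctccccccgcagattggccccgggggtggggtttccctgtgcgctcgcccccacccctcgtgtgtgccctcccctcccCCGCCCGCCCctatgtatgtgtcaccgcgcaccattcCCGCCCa
Bgn: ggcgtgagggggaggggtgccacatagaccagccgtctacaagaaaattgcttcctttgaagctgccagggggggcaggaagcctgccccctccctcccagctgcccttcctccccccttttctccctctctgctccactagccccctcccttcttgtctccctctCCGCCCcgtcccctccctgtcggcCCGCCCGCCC
Each of these windows held 3 matches, a pair of which overlapped, and 31.0% of all windows held at least 1. Their GC content was 74.0% for Acan and 67.0% for Bgn, against 45% for Runx2, 44.5% for Spp1 and a median of 53.0% over all windows. The Vcan window, which is not printed, held 1 GC box and had a GC content of 63%. Neither the TATA box TATAAA, present in 9.96% of windows, nor the RUNX motif was found in the Acan and Bgn windows. The SOX motif ACAAAG, present in 13.3% of windows, was found once, in Spp1. The Acan start used by RefSeq is 257 bases before the start in the count table, and those of Spp1 and Bgn are 7 and 1 bases before theirs. The Runx2 start lies 170 bases inside the gene as the table gives it. Most of the Runx2 window, with the marked motif, is thus within that gene. A match is a description of the letters only.

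The members spanned more than 3 orders of magnitude in level per gene length, so that the list holds some of the most abundant matrix transcripts of the aorta beside transcription factors of low level. Mgp was the most abundant at 1297 ± 637 RPKM (SD, n = 13), followed by Bgn at 727 ± 294 RPKM and Dcn at 220 ± 69.3 RPKM. Mgp exceeded Bgn in 12 of 13 aortas and Bgn exceeded Dcn in all 13. Spp1 followed at a mean of 156 ± 197 RPKM and Lum at 137 ± 78.2 RPKM, but Spp1 exceeded Lum in only 4 of 13 aortas, so that this order rests on a few high values. Comp was at 22.1 ± 11.2 RPKM, Vcan at 7.38 ± 3.33 RPKM and Acan at 3.88 ± 2.59 RPKM, and Vcan exceeded Acan in 12 of 13 aortas. Sox9 was at 0.824 ± 0.390 RPKM, below Acan in all 13 aortas. Runx2 was lowest at 0.355 ± 0.208 RPKM, below Sox9 in 12 of 13. The authors' mean FPKM gave the same ends of the scale, with Mgp at 1375 in Ad-sham and 1201 in Ad-FAM3A, and Runx2 at 0.279 and 0.417.

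**Figure D1:**
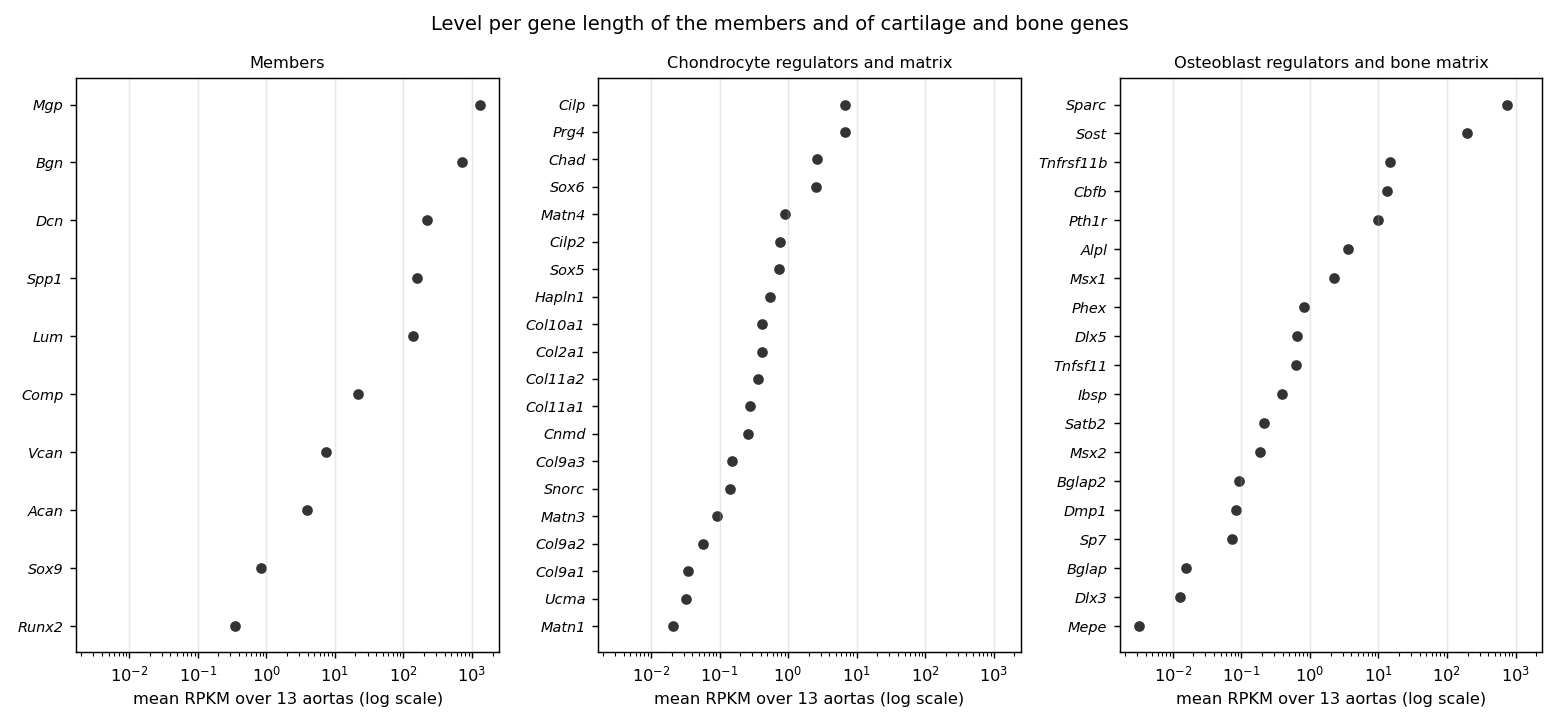
Mean level in RPKM over the 13 aortas (log axis) of the 10 members, 20 genes of chondrocytes and 19 genes of osteoblasts and bone matrix, each dot 1 gene. The members run from 0.355 (Runx2) to 1297 (Mgp). The cartilage and bone genes also range widely, from Matn1, Ucma, Bglap and Mepe below 0.1 to Sost and Sparc at levels like those of the abundant members.

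None of the 10 members was called as different between the virus groups. At an adjusted p under 0.05 (edgeR's quasi-likelihood test, adjusted over all genes tested) 0 of 10 members were called, and the share called over all 15811 genes was 0%. DESeq2 called 9 genes, of which 0 were members, and limma-voom called 0 genes. At an unadjusted p under 0.05, 0 of 10 members passed, against 934 genes or 5.91% of all genes tested. The adjusted p of the members ran from 0.810 to 0.960. Of the 10 members 6 had higher and 4 lower fitted levels in Ad-FAM3A, with a median log2 fold change of 0.32, against 0.0032 over all genes tested. Without the 3 aortas that stand apart the members' median was 0.02, and it was 0.04 without Ad-FAM3A3 alone. In the same fit several marker lists of other cells lay mostly on 1 side, with no gene called at an adjusted p under 0.05. Smooth muscle markers were higher in Ad-FAM3A for 7 of 7 tested genes (median log2 fold change 0.42) and B cell markers for 4 of 4 (median 2.26, all 4 at an unadjusted p under 0.05). Ad-FAM3A6 (536 CPM) and Ad-FAM3A7 (207 CPM) had the highest B cell sums, while the other 5 Ad-FAM3A aortas were at 5.01 to 26.1 CPM and the Ad-sham aortas at 9.45 to 38.8 CPM. Adipocyte markers were lower for 6 of 6 (median -0.64, 3 at an unadjusted p under 0.05) and fibroblast markers for 6 of 7 (median -0.48). The adipocyte sums of Ad-sham1, Ad-sham2 and Ad-sham3 were 4026 to 5441 CPM and those of the other 10 aortas were 1159 to 3376 CPM. The part of these cells in the members' fold changes was not tested. The groups overlapped for every member. The members were also more variable than most genes, with a median SD between aortas of 0.78 on the log2 CPM scale against 0.46 over all genes tested. In whole tissue, fewer cells of a type and less RNA per cell cannot be told apart.

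**Figure D2:**
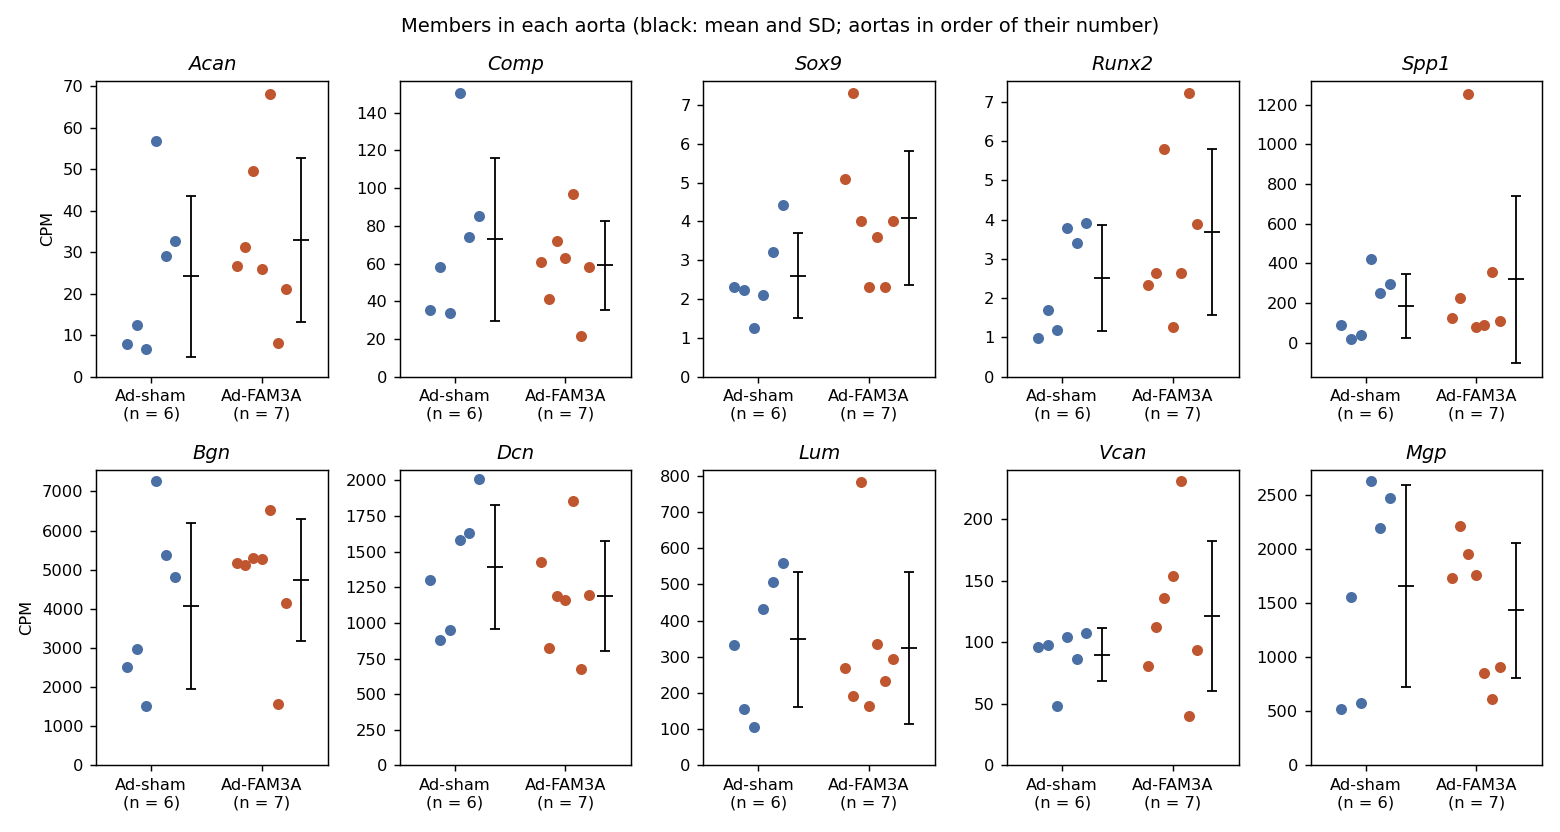
CPM of each member (linear axes, 1 panel a gene) in the 6 Ad-sham (blue) and 7 Ad-FAM3A (orange) aortas, each point 1 aorta, with the mean and SD in black. The groups overlap in every panel, and the highest point of Spp1, 1251 CPM, is 1 Ad-FAM3A aorta.

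The pair of transcription factors had the lowest levels and had higher means in Ad-FAM3A without passing the test. Sox9, which directs chondrocyte differentiation, ranged in Ad-sham from 1.26 to 4.43 CPM with a median of 2.28, and in Ad-FAM3A from 2.32 to 7.32 CPM with a median of 3.999. All 7 Ad-FAM3A aortas lay above the Ad-sham median and 2 lay above every Ad-sham aorta, and the groups overlapped. On the log2 scale the fitted difference was 0.65 with an SE of 0.34 and a 95% confidence interval from -0.07 to 1.38, and the exact permutation test of log2 CPM (two-sided) gave p = 0.0723. These values rest on 20 to 119 reads per aorta. The unadjusted p was 0.0236 without Ad-sham6, 0.0395 without Ad-FAM3A4 and 0.0418 without Ad-FAM3A6, with adjusted p of 0.740, 0.843 and 0.852. Without Ad-FAM3A2, the aorta with the highest Sox9, the log2 fold change was 0.47 (unadjusted p = 0.167), and without Ad-sham3 it was 0.51 (unadjusted p = 0.150).

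Runx2, which directs osteoblast differentiation, ranged in Ad-sham from 0.992 to 3.92 CPM with a median of 2.55, and in Ad-FAM3A from 1.25 to 7.21 CPM with a median of 2.65. Ad-FAM3A6 and Ad-FAM3A3 were highest, at 7.21 and 5.79 CPM, and the other aortas of both groups shared a range. The fitted difference on the log2 scale was 0.55 with an SE of 0.45 and a 95% confidence interval from -0.40 to 1.51 (exact permutation p = 0.265). It was 0.30 without Ad-FAM3A6, the aorta with the highest B cell and T cell marker sums, and -0.04 without the 3 aortas that stand apart. Runx2 overlaps Supt3 on the opposite strand, a gene with up to 241 reads in an aorta, and as no strand setting is stated for the counts their reads may not be fully told apart.

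The cartilage matrix genes varied greatly between aortas of both groups. Acan encodes aggrecan, the proteoglycan that gives cartilage its water content, and ranged in Ad-sham from 6.69 to 56.8 CPM with a median of 20.7, and in Ad-FAM3A from 8.13 to 68.1 CPM with a median of 26.6. Ad-sham3, Ad-sham1 and Ad-FAM3A6 were lowest and Ad-FAM3A5 and Ad-sham4 highest, so that both ends held aortas of both groups. In the fit it differed by a log2 fold change of 0.44 with an SE of 0.53 and a 95% confidence interval from -0.69 to 1.57 (exact permutation p = 0.337). It was 0.89 without Ad-sham4, 0.17 without Ad-FAM3A5 and 0.21 without the 3 aortas that stand apart.

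Comp encodes cartilage oligomeric matrix protein, a thrombospondin that binds collagen. It ranged in Ad-sham from 33.8 to 150 CPM with a median of 66.1, and in Ad-FAM3A from 21.5 to 96.9 CPM with a median of 60.6. Only Ad-sham4 exceeded 100 CPM, and the rest of the Ad-sham aortas lay within the Ad-FAM3A range. Its log2 fold change, Ad-FAM3A minus Ad-sham, was -0.30 with an SE of 0.37 and a 95% confidence interval from -1.09 to 0.48 (exact permutation p = 0.594), and it was 0.04 without Ad-sham4 and -0.47 without the 3 aortas. Of the other 4 thrombospondin genes, which make secreted adhesion proteins, 2 were higher, 2 lower and 1, Thbs4, passed an unadjusted p of 0.05. Thbs4 ranged from 4.30 to 28.04 CPM with a median of 11.1 in Ad-sham and from 1.48 to 9.31 CPM with a median of 4.10 in Ad-FAM3A. On the log2 scale the fitted difference was -1.42 with an SE of 0.50 (adjusted p = 0.810), 4 of 7 Ad-FAM3A aortas lay below every Ad-sham aorta, and the groups overlapped.

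Vcan encodes versican, the large hyaluronan-binding proteoglycan of the vessel wall. It ranged in Ad-sham from 48.3 to 108 CPM with a median of 96.6, and in Ad-FAM3A from 40.0 to 230 CPM with a median of 112. Of the 7 Ad-FAM3A aortas 4 lay above every Ad-sham aorta, and Ad-FAM3A6 lay below all of them. The fitted difference on the log2 scale was 0.43 with an SE of 0.32 and a 95% confidence interval from -0.26 to 1.11 (exact permutation p = 0.428). It was 0.20 without Ad-FAM3A5, and without Ad-FAM3A6 it was 0.58, with an unadjusted p of 0.0408 and an adjusted p of 0.852. Antisense reads of Gm4117, up to 98 in an aorta, overlap this gene.

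The small leucine-rich proteoglycans were abundant in every aorta. Bgn, which encodes biglycan, ranged in Ad-sham from 1528 to 7269 CPM with a median of 3893, and in Ad-FAM3A from 1575 to 6537 CPM with a median of 5180. Of the 7 Ad-FAM3A aortas 6 lay between 4144 and 6537 CPM, while Ad-FAM3A6 was far lower and close to Ad-sham3. In the fit it differed by a log2 fold change of 0.22 with an SE of 0.38 and a 95% confidence interval from -0.60 to 1.03 (exact permutation p = 0.488). It was 0.46 without Ad-sham4, 0.05 without Ad-sham3 and 0.07 without the 3 aortas.

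Dcn, which encodes decorin, was the steadiest member, with a 2.96-fold span between the lowest and the highest aorta and an SD near the middle of all genes tested (percentile 50.8). It ranged in Ad-sham from 879 to 2008 CPM with a median of 1441, and in Ad-FAM3A from 678 to 1854 CPM with a median of 1187. Of the 7 Ad-FAM3A aortas 6 lay below the Ad-sham median, and the groups overlapped over most of their range. Its log2 fold change, Ad-FAM3A minus Ad-sham, was -0.23 with an SE of 0.26 and a 95% confidence interval from -0.79 to 0.34 (exact permutation p = 0.389), and it was -0.09 without Ad-sham6 and -0.36 without Ad-FAM3A5.

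Lum, which encodes lumican, a regulator of collagen fibril spacing, ranged in Ad-sham from 105 to 558 CPM with a median of 382, and in Ad-FAM3A from 165 to 782 CPM with a median of 269. Ad-FAM3A3 was the highest aorta and the other 6 Ad-FAM3A aortas lay below the Ad-sham median. On the log2 scale the fitted difference was -0.10 with an SE of 0.43 and a 95% confidence interval from -1.02 to 0.81 (exact permutation p = 0.910). It was -0.47 without Ad-FAM3A3, 0.08 without Ad-sham6 and -0.27 without the 3 aortas. Of 12 tested genes among 14 other small leucine-rich proteoglycans, 7 were higher and 5 lower in Ad-FAM3A, and none passed an unadjusted p of 0.05. The most abundant of these were Ogn (osteoglycin) at 237 RPKM, Prelp at 104 RPKM and Fmod (fibromodulin) at 35.2 RPKM.

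The genes tied to mineral showed both the widest spread and some of the highest levels. Spp1 encodes osteopontin, a secreted phosphoprotein of bone, macrophages and modulated smooth muscle cells. It ranged in Ad-sham from 15.8 to 420 CPM with a median of 170, and in Ad-FAM3A from 79.1 to 1251 CPM with a median of 125. The means stood in the opposite order to the medians, 184 ± 162 CPM over 6 Ad-sham and 318 ± 423 CPM over 7 Ad-FAM3A aortas, as 1 aorta, Ad-FAM3A3, was at 1251 CPM. The fitted difference on the log2 scale was 0.79 with an SE of 0.80 and a 95% confidence interval from -0.92 to 2.50 (exact permutation p = 0.396). Without Ad-FAM3A3 it was -0.13, without Ad-sham4 it was 1.21 and without the 3 aortas it was 0.35. The 79.4-fold span between the lowest and the highest aorta placed Spp1 at percentile 96.5 of all genes tested by SD.

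Mgp, which encodes the mineralization inhibitor matrix Gla protein, ranged in Ad-sham from 526 to 2631 CPM with a median of 1875, and in Ad-FAM3A from 614 to 2213 CPM with a median of 1736. Low aortas, under 1000 CPM, were found in both groups, 2 of 6 in Ad-sham and 3 of 7 in Ad-FAM3A. In the fit it differed by a log2 fold change of -0.21 with an SE of 0.43 and a 95% confidence interval from -1.12 to 0.70 (exact permutation p = 0.882). It was -0.03 without Ad-sham4, -0.38 without Ad-sham3 and -0.47 without the 3 aortas. The other calcification inhibitors, 8 tested genes, were higher for 6 and lower for 2, with Gas6 at 165 RPKM, Tnfrsf11b (osteoprotegerin) at 14.5 RPKM and Ggcx, the enzyme that carboxylates Gla proteins, at 12.3 RPKM. Only Ahsg (fetuin-A, made by the liver) passed an unadjusted p of 0.05, at a log2 fold change of 1.37 with an SE of 0.60 (adjusted p = 0.810). The sum of 5 liver markers ran from 1.52 to 45.6 CPM in Ad-sham and from 1.10 to 378 CPM in Ad-FAM3A aortas, and the part of liver RNA in the Ahsg value was not tested.

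**Figure D3:**
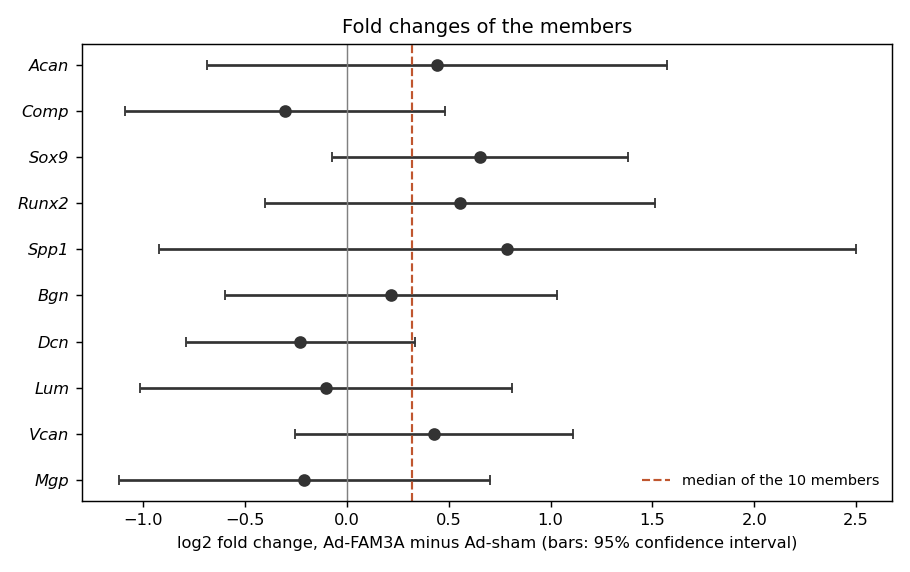
Log2 fold change of each member, Ad-FAM3A minus Ad-sham, from edgeR's quasi-likelihood fit over 13 aortas, with 95% confidence intervals as bars. Every interval includes 0, and the dashed line marks the members' median of 0.32, which was 0.02 without the 3 aortas that stand apart.

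Several genes that define mature cartilage had few reads, while others were measured in most aortas. Of 20 chondrocyte genes 12 were tested, 7 higher and 5 lower in Ad-FAM3A, and 2 passed an unadjusted p of 0.05. The 8 below the filter included Matn1, with at most 4 reads in an aorta, Ucma with at most 2, Snorc with at most 7 and the collagen IX genes Col9a1, Col9a2 and Col9a3 with at most 17, 12 and 33. The most abundant chondrocyte genes were Cilp at 6.86 RPKM, Prg4 (lubricin) at 6.82 RPKM and Chad (chondroadherin) at 2.66 RPKM. Col2a1, the main collagen of cartilage, ranged from 0 to 2.12 CPM with a median of 1.07 in Ad-sham and from 0.314 to 25.6 CPM with a median of 3.68 in Ad-FAM3A. It exceeded every Ad-sham aorta in 4 of 7 Ad-FAM3A aortas, and Ad-FAM3A3 alone held the value of 25.6 CPM, the next highest being 6.32 CPM in Ad-FAM3A7. Its log2 fold change, Ad-FAM3A minus Ad-sham, was 2.51 with an SE of 0.93 (adjusted p = 0.810). Sox6, a partner of Sox9, went the other way at a log2 fold change of -0.39 with an SE of 0.15 (adjusted p = 0.810).

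Several genes of mature bone were likewise scarce. Of 19 osteoblast and bone matrix genes 11 were tested, with 7 higher and 4 lower. Bglap (osteocalcin) had at most 1 read in an aorta, Bglap2 at most 5, Mepe at most 1 and Sp7 (osterix, the factor acting after Runx2) at most 9. In contrast Sparc (osteonectin) was at 744 RPKM, Sost (sclerostin) at 195 RPKM and Tnfrsf11b at 14.5 RPKM. Pth1r, the receptor of parathyroid hormone, was the only gene of this list with an unadjusted p under 0.05. It ranged in Ad-sham from 32.3 to 44.97 CPM with a median of 36.5, and in Ad-FAM3A from 14.3 to 31.1 CPM with a median of 21.7. All 7 Ad-FAM3A aortas lay below all 6 Ad-sham aortas, a separation found in this direction in 0.0569% of all genes tested (9 genes), with 0.0379% separated in the other direction. On the log2 scale the fitted difference was -0.74 with an SE of 0.17, and the adjusted p over all genes was 0.810, so that Pth1r was not called.

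Bone morphogenetic proteins induce cartilage and bone, and their antagonists bind them outside the cell. Of 12 such genes 7 were higher and 5 lower, and 3 passed an unadjusted p of 0.05, each with 1 Ad-FAM3A aorta below every Ad-sham aorta. Above every Ad-sham aorta lay 4 of 7 Ad-FAM3A aortas for Bmp2, 5 for Bmp4 and 5 for Grem1. Bmp2 had a median of 8.28 CPM in Ad-sham and 12.6 CPM in Ad-FAM3A, and its fitted log2 difference was 0.58, SE 0.26 (adjusted p = 0.810). Bmp4 had a median of 24.8 CPM in Ad-sham and 36.7 CPM in Ad-FAM3A, and its fitted log2 difference was 0.92, SE 0.41 (adjusted p = 0.810). The antagonist Grem1 ranged from 0.568 to 2.34 CPM in Ad-sham and from 0.147 to 71.0 CPM in Ad-FAM3A, where Ad-FAM3A3 (71.0 CPM) and Ad-FAM3A6 (35.8 CPM) were highest, and its log2 fold change was 3.64 with an SE of 1.06 (adjusted p = 0.810). The most abundant of the list were Gdf10 at 27.3 RPKM, Bmp6 at 24.5 RPKM and Bmp4 at 16.0 RPKM.

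Proteoglycans need glycosaminoglycan chains, which a shared set of enzymes builds and sulfates. Of 23 tested genes of glycosaminoglycan synthesis 15 were higher and 8 lower, and Chst3, a chondroitin 6-sulfotransferase, passed an unadjusted p of 0.05. Chst3 ranged from 17.3 to 55.3 CPM with a median of 41.7 in Ad-sham and from 44.3 to 90.5 CPM with a median of 57.7 in Ad-FAM3A, with 5 of 7 aortas above every Ad-sham aorta. The fitted difference on the log2 scale was 0.78 with an SE of 0.29 (adjusted p = 0.810). Chpf was the most abundant of these genes at 27.6 RPKM, before B3gat3 at 22.2 RPKM and Chst12 at 16.6 RPKM. Of 18 tested genes for other proteoglycans and link proteins 12 were higher and 6 lower, and Sdc4 (syndecan-4) passed an unadjusted p of 0.05 at a log2 fold change of 0.52, SE 0.23 (adjusted p = 0.810). Hspg2 (perlecan) at 81.7 RPKM, Sdc4 at 55.3 RPKM and Srgn (serglycin) at 34.9 RPKM were the most abundant. In none of the 8 lists was a gene called at an adjusted p under 0.05. For the list genes that passed an unadjusted p of 0.05 in the fit, the exact permutation test gave p = 0.00117 for Pth1r, 0.0163 for Chst3, 0.0233 for Sox6 and 0.0297 for Thbs4. The same exact permutation test gave p = 0.0659 for Col2a1, 0.0781 for Sdc4, 0.0880 for Bmp2, 0.0991 for Grem1, 0.255 for Bmp4 and 0.301 for Ahsg, none of which passed 0.05.

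Levels of many members varied together from aorta to aorta. Of 45 pairs of members 44 had a positive Pearson correlation of log2 CPM over the 13 aortas, and 13 passed an adjusted permutation p of 0.05 over the 45 pairs, 7 of them also by Spearman's rho. The median r over the 45 pairs was 0.50 and 97.8% were positive, against a median of -0.01 and 49.3% positive over all pairs of the genes tested. Without the 3 aortas that stand apart the members' median was 0.32, with 86.7% positive, against 49.7% over all pairs of genes. Acan and Bgn had the highest correlation, r = 0.94 (adjusted permutation p = 0.00045) and rho = 0.88 (adjusted permutation p = 0.00255). It was 0.97 within Ad-sham, 0.91 within Ad-FAM3A, 0.92 without the 2 aortas farthest from the median of Acan and 0.91 without the 3 aortas that stand apart. Comp moved with both, at r = 0.86 with Bgn (adjusted permutation p = 0.00112) and r = 0.84 with Acan (adjusted permutation p = 0.00375), with rho of 0.88 (adjusted permutation p = 0.00255) and 0.87 (adjusted permutation p = 0.00255). Without the 3 aortas these were 0.62 and 0.64, with adjusted permutation p of 0.274 for each.

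Some pairs among Runx2, Spp1 and Lum also moved together, but these 3 were not a separate set. Within Ad-sham, Runx2 had r = 0.96 with Acan and 0.96 with Mgp, above its values with Spp1 and Lum. Within Ad-FAM3A these were -0.35 and -0.47. Over all aortas Lum had r = 0.63 with Dcn and 0.60 with Acan (adjusted permutation p of 0.0689 and 0.0836). Runx2 and Spp1 had r = 0.76 (adjusted permutation p = 0.0137) and rho = 0.80 (adjusted permutation p = 0.0159), with 0.75 within Ad-sham, 0.74 within Ad-FAM3A and 0.82 without the 2 aortas farthest from the median of Runx2. Without the 3 aortas it was 0.79, with an adjusted permutation p of 0.0762, so that this pair no longer passed. Sox9 and Acan, the other regulator and target named above, had r = 0.55 (adjusted permutation p = 0.115) and rho = 0.45 (adjusted permutation p = 0.233), with 0.28 without the 2 aortas farthest from the median of Acan and 0.10 without the 3 aortas. Spp1 and Lum had r = 0.77 (adjusted permutation p = 0.0137) and rho = 0.72 (adjusted permutation p = 0.0472), with 0.89 within Ad-sham, 0.69 within Ad-FAM3A and 0.64 without the 2 aortas farthest from the median of Spp1. Runx2 and Lum had r = 0.59 over all aortas (adjusted permutation p = 0.0858), rho = 0.59 (adjusted permutation p = 0.105), and 0.89 without the 3 aortas that stand apart (adjusted permutation p = 0.0169). Comp and Dcn had r = 0.78 (adjusted permutation p = 0.0132) and rho = 0.80 (adjusted permutation p = 0.0159). It was 0.62 within Ad-sham, 0.93 within Ad-FAM3A and 0.73 without the 3 aortas, where it no longer passed (adjusted permutation p = 0.133).

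Fewer pairs passed when aortas were left out, which also lowers the number of aortas. Without the 3 aortas that stand apart (n = 10) 3 of 45 pairs passed an adjusted permutation p of 0.05, Acan with Bgn, Runx2 with Lum and Spp1 with Lum, and without Ad-FAM3A6 alone (n = 12) 9 of 45 passed, of which 7 were among the 13. Ad-sham3 was among the lowest 3 aortas for 9 of 10 members, Ad-FAM3A6 for 6 and Ad-sham1 for 5. Ad-sham6 was among the highest 3 for 6 members, and Ad-sham4, Ad-FAM3A3 and Ad-FAM3A5 for 5 each.

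**Figure D4:**
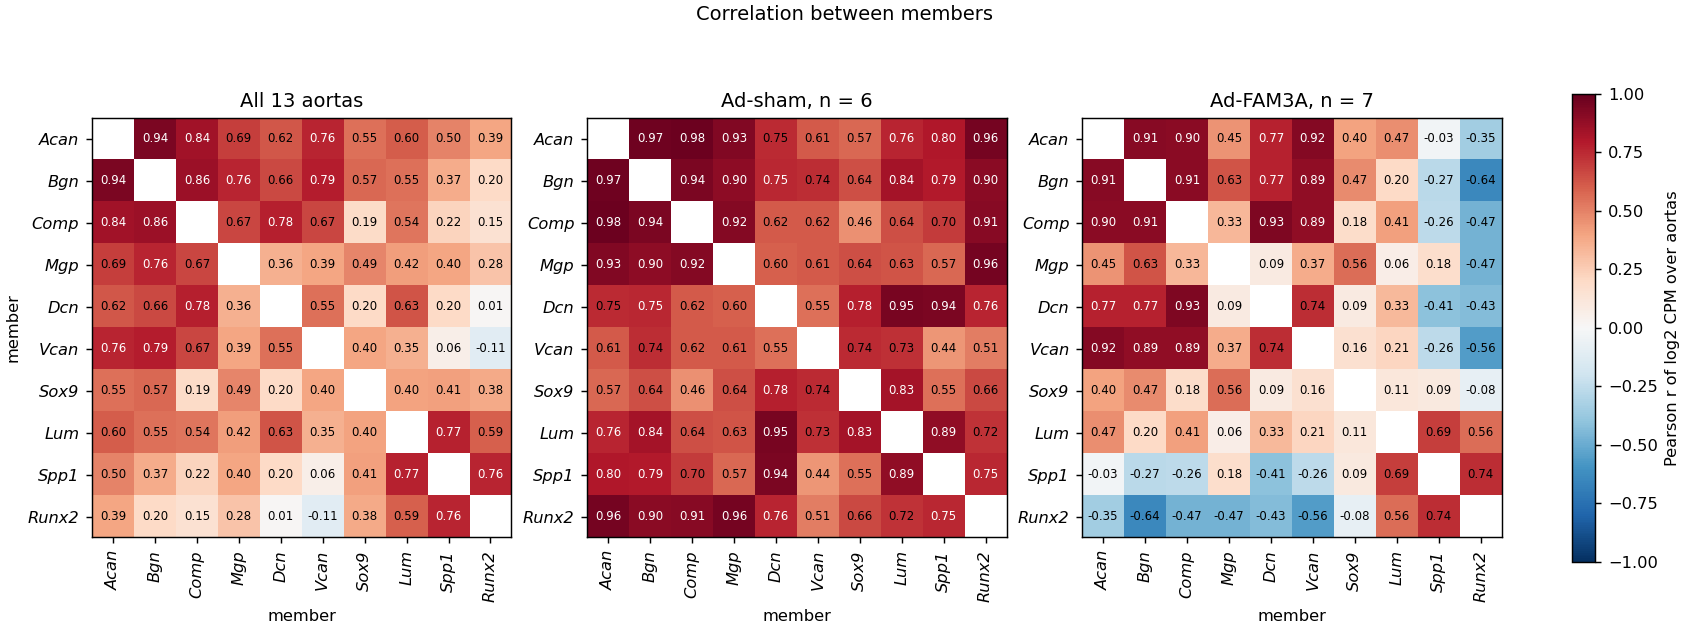
Pearson r of log2 CPM for each pair of members, over all 13 aortas (left), the 6 Ad-sham aortas (middle) and the 7 Ad-FAM3A aortas (right), from blue (-1) to red (1). All 45 pairs are positive in Ad-sham and 33 of 45 in Ad-FAM3A, where Runx2 is negative with 7 members.

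Within the groups the pattern looked unlike. In Ad-sham all 45 pairs were positive, with a median r of 0.75, and in Ad-FAM3A 33 were positive, with a median r of 0.33. Runx2 and Bgn had r = 0.90 in Ad-sham and -0.64 in Ad-FAM3A, where Ad-FAM3A6 combined the highest Runx2 with the lowest Bgn of its group. Without Ad-FAM3A6 the Ad-FAM3A value was -0.23, and 26 of 45 pairs were positive with a median r of 0.12. The like check was not made in Ad-sham, where 4 aortas would be left without Ad-sham1 and Ad-sham3 and correlations were computed over at least 6. The share of positive pairs over all genes was not computed within a group, so these counts have no background. The difference between the groups in these correlations was not tested.

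Relations of the members with marker lists of cell types and tissues mostly did not pass correction. Of 160 relations between a member and 1 of 16 marker lists, 2 passed an adjusted permutation p of 0.05 by Pearson's r and 0 by both measures. Comp was lower where 4 tested cardiac muscle markers were higher, at r = -0.82 (adjusted permutation p = 0.0352) and rho = -0.77 (adjusted permutation p = 0.115). It was -0.74 without the 2 aortas farthest from the median. Vcan followed the mean of Sost, Phex and Ibsp, the only 3 of 7 listed bone markers tested, at r = 0.82 (adjusted permutation p = 0.0416) and rho = 0.68 (adjusted permutation p = 0.148), with 0.38 within Ad-sham and 0.91 within Ad-FAM3A. Sp7, Bglap, Bglap2 and Dmp1 fell below the filter and are not in this score. Most of the list's summed level was Sost, as in Ad-sham2 with 784 of 788 CPM.

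No relation with a smooth muscle, fibroblast, endothelium or macrophage list passed. The score of 7 smooth muscle markers had r = 0.76 with Bgn, 0.72 with Vcan, 0.69 with Acan, 0.67 with Comp and 0.63 with Mgp, at adjusted permutation p of 0.0667 to 0.121, with Spearman's rho of 0.38 to 0.64 at adjusted permutation p of 0.184 to 0.510. The Pearson values were 0.55, 0.68, 0.43, 0.30 and 0.28 without Ad-sham1 and Ad-FAM3A6, the aortas farthest from the median of the score. Other lists had r of similar size with the same members. The cardiac muscle score had r = -0.79 with Bgn, -0.79 with Acan and -0.78 with Mgp (adjusted permutation p of 0.0603 to 0.0680, with rho of -0.72 to -0.60 at adjusted permutation p of 0.133 to 0.214). Without the same 2 aortas these were -0.73, -0.69 and -0.58. The fibroblast score had r = 0.76 and the endothelium score r = 0.69 with Comp, and the adipocyte score had r = -0.73 with Acan (adjusted permutation p of 0.0647 to 0.0959, with rho of 0.63, 0.75 and -0.77 at adjusted permutation p of 0.115 to 0.184). Without the 2 aortas farthest from the median of each score they were 0.53, 0.61 and -0.63. For the smooth muscle score the values of Runx2 and Spp1 were r = -0.21 (adjusted permutation p = 0.681) and -0.17 (adjusted permutation p = 0.771), with rho of -0.27 (adjusted permutation p = 0.673) and -0.29 (adjusted permutation p = 0.657). Spp1 had r = 0.69 with the score of 10 macrophage markers (adjusted permutation p = 0.0959) and rho = 0.75 (adjusted permutation p = 0.115), and Runx2 had r = 0.67 with that of 6 T cell markers (adjusted permutation p = 0.0959) and rho = 0.63 (adjusted permutation p = 0.184). The score of 4 cell division markers had values of similar size. They were r = 0.64 (adjusted permutation p = 0.121) and rho = 0.75 (adjusted permutation p = 0.115) with Spp1. With Runx2 they were r = 0.67 (adjusted permutation p = 0.0994) and rho = 0.65 (adjusted permutation p = 0.165). The closest list for Runx2 was the score of 2 tested hyaline cartilage markers, Col2a1 and Col11a2, at r = 0.76 (adjusted permutation p = 0.0647) and rho = 0.70 (adjusted permutation p = 0.134). It was 0.79 within Ad-sham, 0.69 within Ad-FAM3A and 0.64 without Ad-sham3 and Ad-FAM3A4. This score had r = 0.67 with Lum (adjusted permutation p = 0.0994) and 0.63 with Spp1 (adjusted permutation p = 0.121), with rho of 0.55 (adjusted permutation p = 0.249) and 0.54 (adjusted permutation p = 0.280). Macrophage marker sums ran from 877 to 3007 CPM in Ad-sham and from 792 to 4783 CPM in Ad-FAM3A. The highest Spp1 value, in Ad-FAM3A3, came with a macrophage sum of 2073 CPM and with 391 CPM of 8 kidney tubule markers, which ran from 1.27 to 665 CPM in Ad-sham and from 1.38 to 391 CPM in Ad-FAM3A. Ad-FAM3A3 also had the highest sum of 6 sympathetic neuron markers, 1177 CPM. That score had r = 0.23 with Spp1 (adjusted permutation p = 0.662) and rho = 0.32 (adjusted permutation p = 0.604), with -0.03 within Ad-sham and 0.77 within Ad-FAM3A. Over the 13 aortas Spp1 had r = 0.54 with the kidney tubule score (adjusted permutation p = 0.255) and rho = 0.67 (adjusted permutation p = 0.148). It was 0.51 within Ad-sham, 0.91 within Ad-FAM3A and 0.26 without Ad-sham6 and Ad-FAM3A3. The part of these cells in the members' values was not tested.

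**Figure D5:**
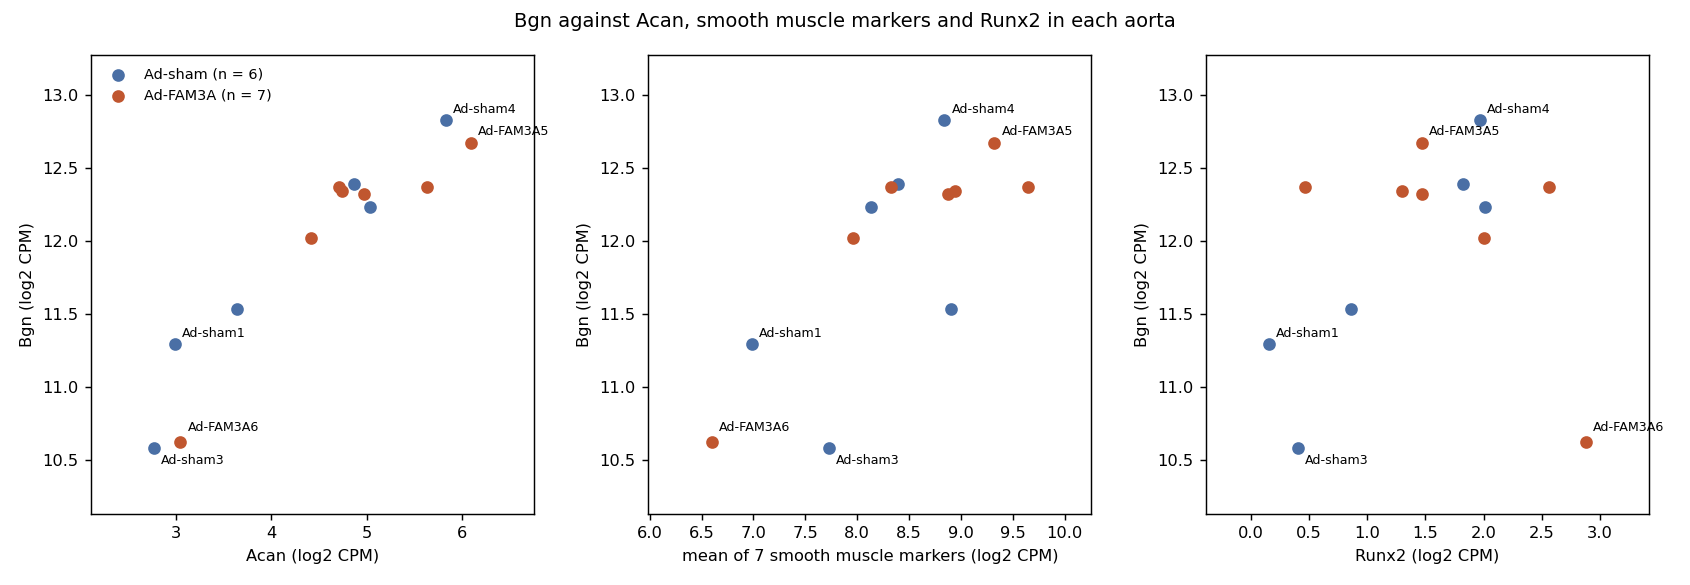
Bgn (log2 CPM) against Acan, the mean of 7 smooth muscle markers and Runx2 (log2 CPM), each point 1 aorta, Ad-sham in blue (n = 6) and Ad-FAM3A in orange (n = 7). Bgn follows Acan (r = 0.94), its r with the smooth muscle score is 0.76 (not past correction), and in the right panel Ad-FAM3A6 has the highest Runx2 beside a low Bgn.

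The transcripts most alike each member over the 13 aortas were named by Pearson's r, as a description. Acan was closest to Sulf1, a sulfatase of heparan sulfate (r = 0.96), Itpripl2 (0.96) and Crispld1 (0.95). Bgn was closest to Itgbl1 (0.98), Pam (0.97) and Mir22hg (0.97), and Comp to Slit3 (0.91), Asap2 (0.91) and Fat1 (0.91). Dcn was closest to the matrix genes Abi3bp (0.95) and Lama2 (0.94) and to Wdr13 (0.93), whereas its neighbour Lum was closest to Washc5 (0.93), Col8a1 (0.91) and Klhl20 (0.91). Mgp was closest to Mxra8 (0.94), the endothelial factor Erg (0.91) and the nucleoside transporter Slc29a1 (0.90), and Vcan to Tdrd3 (0.96), Slc16a7 (0.95) and Pla2g4a (0.94). Runx2 was closest to the B cell surface gene Cd72 (0.90), Atp8b4 (0.90) and St14 (0.90), and Spp1 to Tpd52 (0.93), Cdk18 (0.93) and Pkp1 (0.91). Sox9 had the least close neighbours, Tmem206 (0.87), Hsf2bp (0.85) and Cdsn (0.85).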

How the data were processed

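RNA sequencing of 13 aortas (6 Ad-sham, 7 Ad-FAM3A, grouped by GEO's labels) was analysed. After quality filtering, the authors mapped the reads to GRCm38 (Hisat2) and assigned them to genes (FeatureCounts). They deposited whole-number counts per gene and aorta, not normalized, and a mean FPKM per group. The annotation release and strand setting are not given in the sources used here. Counts were scaled by TMM, filtered by filterByExpr and compared by edgeR's quasi-likelihood test (edgeR 4.0.16, R 4.3.3) with Benjamini-Hochberg adjustment over 15811 genes. The log2 CPM scale used a prior count of 2, and RPKM divided CPM by the table's gene length. For single members an exact permutation test (two-sided, on log2 CPM) used all 1716 arrangements of the aortas, which allows no p below 0.000583. Correlations used 100000 permutations. Gene models of GENCODE M21 served for coordinates and RefSeq (GRCm38.p6) for promoters. The members and lists were chosen with earlier results of these data known. Related and marker lists were written by hand. All members were named, as were the 3 genes most alike each, and list genes with an unadjusted p under 0.05, the 3 highest in RPKM of a list, or defining markers near 0. One listed symbol (1 gene) was missing from the table. As no source says more of the mice behind the aortas than 1 library each, p-values measure the spread between these samples. The highest Spearman correlation between 2 aortas was 0.979, so none was treated as a repeat. Depth was 14481179 to 19797407 counts per aorta. Alternatives were DESeq2 1.42.0, limma-voom (limma 3.58.1), other scalings and filters, a replicate block and leaving out aortas.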

Additional observations from a re-analysis of the deposited data

Results flagged for a closer look

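Within a group of 6 or 7 aortas, 6 of 52 sets of values held 1 aorta far from the others, against 2.6 by chance, as about 1 in 20 groups gives such a value. Among the members, Bgn in Ad-FAM3A6 was at 10.62 on the log2 CPM scale, with the other Ad-FAM3A aortas between 12.02 and 12.67. Vcan in Ad-sham3 was at 5.597, with the other Ad-sham aortas between 6.436 and 6.754. Among the marker scores (mean log2 CPM of a list), the fibroblast score of Ad-FAM3A6 was 5.697, with the others of its group between 6.594 and 7.26. Its cardiac muscle score was 5.052, with the others between 0.7297 and 1.979, and its bone score was 1.505, with the others between 3.604 and 4.413. The T cell score of Ad-sham4 was 4.291, with the other Ad-sham aortas between 0.5301 and 1.848.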

How the results depend on the processing

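No member was called at an adjusted p under 0.05 under any of the alternatives, nor on leaving out each aorta in turn. Over all genes, DESeq2 called 9, and the other fits called 0. The number of genes with an unadjusted p under 0.05 was 2269 without a filter and 1501 with DESeq2. It was 596 with the replicate block on 12 aortas, against 791 on the same 12 aortas without a block. It was 480 without Ad-sham1, Ad-sham3 and Ad-FAM3A6, and leaving out each aorta gave 491 (without Ad-sham3) to 1345 (without Ad-FAM3A2). The replicate numbers did not pair the aortas: correlations of same-numbered aortas ran from -0.33 to 0.45, and 1 of 6 numbers was most alike its own partner. The block on 12 aortas called 0 members, and Mgp turned to 0.0186. Members with an unadjusted p under 0.05 numbered 0 to 2 on leaving out each aorta, 1 without Ad-FAM3A6 and Ad-FAM3A7 together, and the median log2 fold change of the members was 0.04 (without Ad-FAM3A3) to 0.47 (without Ad-sham4), and 0.0166 without Ad-sham1, Ad-sham3 and Ad-FAM3A6. Direction turned for Mgp (0.0445 without Ad-FAM3A6 and Ad-FAM3A7), Runx2 (-0.0351 without the 3 aortas), Comp (-0.45 to 0.0408), Lum (-0.47 to 0.0818, in 4 of 13) and Spp1 (-0.13 to 1.21). Related pairs of members numbered 9 without Ad-FAM3A6 and 3 without the 3 aortas, against 13. The cause was not tested. The alternatives without several aortas, the fit on the same 12 aortas without a block, and the correlations without aortas were chosen after seeing the data. Depth limits Sox9 and Runx2 most, at 15 to 119 reads per aorta.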
